A study of Mus musculus with 6 samples.

Results

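The transforming growth factor beta (TGF-beta) genes described here are the 3 ligand genes Tgfb1, Tgfb2 and Tgfb3, the 3 receptor genes Tgfbr1, Tgfbr2 and Tgfbr3, and the 4 genes of latent TGF-beta binding proteins, Ltbp1 to Ltbp4. They were chosen by symbol, with earlier results of these data known, though no measured value entered the rule. All 10 were found among the 23478 genes of the count table. RNA-seq was done on 6 libraries from the dissociated tracheas of mouse embryos at embryonic day 13.5. 3 libraries held muscle cells, collected by green fluorescence of an eGFP reporter named for gamma smooth muscle actin, and 3 held epithelial cells, collected by surface Epcam. All 6 libraries, muscle and epithelium alike, carried floxed Bmp4 alleles (Bmp4 f/f) and the gamma SMA eGFP reporter, were called controls in the file header, and had no Cre driver in their labels. The labels give neither the number of embryos behind a library nor whether libraries came from separate litters, so p-values measure the spread between these libraries, which may be technical.

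TGF-beta ligands are secreted in a latent form, in which the mature dimer stays bound to its own propeptide. A latent binding protein is usually joined to that complex and tethers it to fibrillin microfibrils and fibronectin, from which integrins, proteases and thrombospondin can release it. The free ligand binds the type II receptor, Tgfbr2, which recruits and phosphorylates the type I receptor, Tgfbr1, and this kinase in turn acts on Smad2 and Smad3. In airways the pathway is known for its effects on smooth muscle differentiation, matrix deposition and epithelial growth.

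The stretches of 250 bases directly upstream of an annotated start are printed for the ligand Tgfb2 and for Tgfbr2, Ltbp1 and Ltbp3, which were all higher in muscle, and for the ligand Tgfb1, which had hardly any counts. They are RefSeq sequences on GRCm38.p6, 5′ to 3′ on the strand of the gene, and 8 of the 10 genes were found in the promoter table used here. Tgfb3 and Tgfbr3 were not matched. Capitals mark every match, on either strand, to 8 motifs. The core promoter motifs were the TATA box, searched as TATAAA, the CCAAT motif and the Sp1 site, searched as GGGCGG. The others were an E-box, searched as CACGTG, the cyclic AMP response element, searched as TGACGTCA, the AP-1 site, searched as TGANTCA, a Smad binding element, searched as CAGAC, and the CArG box of serum response factor. No match overlapped a match to another motif in these windows. The windows are chr1:186705990-186706239 (minus strand) for Tgfb2, chr7:25686752-25687001 (plus) for Tgfb1, chr9:116175364-116175613 (minus) for Tgfbr2, chr17:75005279-75005528 (plus) for the upstream start of Ltbp1 and chr19:5740650-5740899 (plus) for Ltbp3.
Tgfb2: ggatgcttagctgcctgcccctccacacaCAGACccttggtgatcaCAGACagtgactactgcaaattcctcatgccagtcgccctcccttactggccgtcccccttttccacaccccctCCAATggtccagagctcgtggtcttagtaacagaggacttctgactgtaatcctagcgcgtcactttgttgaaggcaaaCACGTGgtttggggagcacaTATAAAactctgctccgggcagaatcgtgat
Tgfb1: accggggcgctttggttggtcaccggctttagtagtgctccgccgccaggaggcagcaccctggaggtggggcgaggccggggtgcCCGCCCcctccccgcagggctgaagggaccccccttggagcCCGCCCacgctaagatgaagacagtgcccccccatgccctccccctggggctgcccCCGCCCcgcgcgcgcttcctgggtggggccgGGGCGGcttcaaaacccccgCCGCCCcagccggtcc
Tgfbr2: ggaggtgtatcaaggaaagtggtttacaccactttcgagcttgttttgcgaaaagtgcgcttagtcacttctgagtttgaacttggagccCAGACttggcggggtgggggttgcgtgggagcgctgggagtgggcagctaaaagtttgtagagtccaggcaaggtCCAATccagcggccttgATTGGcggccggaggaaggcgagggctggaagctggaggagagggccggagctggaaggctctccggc
Ltbp1: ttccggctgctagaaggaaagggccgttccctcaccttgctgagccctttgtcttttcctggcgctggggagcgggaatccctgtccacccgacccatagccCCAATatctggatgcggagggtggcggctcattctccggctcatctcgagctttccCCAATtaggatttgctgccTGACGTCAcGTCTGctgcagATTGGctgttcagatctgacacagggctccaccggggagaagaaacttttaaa
Ltbp3: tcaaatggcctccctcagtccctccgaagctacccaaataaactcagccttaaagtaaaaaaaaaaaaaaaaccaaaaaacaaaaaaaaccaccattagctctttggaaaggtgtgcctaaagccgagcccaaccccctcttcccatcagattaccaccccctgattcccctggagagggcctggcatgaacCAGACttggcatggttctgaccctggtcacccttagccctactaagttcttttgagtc

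The window of Tgfb2 held TATAAA starting 31 bases before the annotated start and CACGTG starting 51 bases before it. Among 32817 promoter windows of the same length, 12.4% held TATAAA and 6.02% held CACGTG. The window of Tgfb1 held neither, was 75.2% G and C against a median of 52.4% over all windows, and held 5 matches to GGGCGG, a motif with at least 1 match in 32.7% of windows. Ltbp1 had TGACGTCA starting 73 bases before its upstream start, a motif found in 1.55% of windows. CAGAC was present in Tgfb2, Tgfbr2, Ltbp1 and Ltbp3 and absent from Tgfb1, and 42.2% of all windows held it. Windows not printed include those of Ltbp2, Tgfbr1 and Ltbp4, genes that did not pass the threshold given below. Among these, CAGAC was present in Ltbp2 and at the downstream start of Tgfbr1. It was absent from the upstream start of Tgfbr1 and from Ltbp4. None of the 5 printed windows held the CArG box (1.47% of all windows) or TGANTCA (6.75%), which says only that these letters are not in these stretches.

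Total counts ranged from 17686605 to 49352790 in the muscle libraries and from 11847432 to 54848820 in the epithelial ones. Levels are given as CPM, the counts of a gene relative to its library's total, with totals adjusted by the TMM method of edgeR. Actg2, which encodes gamma smooth muscle actin, and Epcam, the stained protein, separated the populations, with log2 fold changes of muscle over epithelium of 9.77 ± 0.85 (SE; edgeR adjusted p = 0.00037) and -8.62 ± 0.52 (adjusted p = 9.6e-05). RNA of 8 fibroblast markers, called mesenchymal RNA here, summed to 6244 to 8229 CPM in muscle. In epithelium replicates 1 to 3 the sums were 282, 1690 and 219 CPM. Much of the muscle sums came from the collagen genes Col1a1 and Col3a1, named after their values were seen. Their means were 2286.5 and 3878 CPM in muscle and 236 and 318 CPM in epithelium. Whether fibroblasts or the muscle cells themselves made this RNA was not tested. By these sums, epithelium replicate 2 stood apart in mesenchymal genes. There, 10 smooth muscle markers summed to 166 CPM against 126 and 128 in the other epithelial libraries. Muscle replicate 2 stood apart in those same markers, which summed to 17911, 4391 and 19292 CPM in muscle replicates 1 to 3. Endothelial markers (8 genes) summed to 47.9 to 76.3 CPM in muscle and 2.03, 63.5 and 21.8 CPM in epithelium replicates 1 to 3, and immune markers (10 genes) to 4.49 to 58.6 and 6.69 to 46.2 CPM. In both lists all genes were tested and none passed the threshold. Cartilage markers (9 genes) summed to 671 to 1293 CPM in muscle and 289.5 to 458 CPM in epithelium, and 3 of them, Col9a1, Col9a2 and Matn4, were higher in muscle (adjusted p = 0.011, 0.020 and 0.0049, edgeR). The part of cartilage RNA in the differences described here was not tested. Olfactory and vomeronasal receptor genes, which serve sensory neurons, had counts in 73.2% to 78.6% of cases in muscle replicate 2 and epithelium replicates 2 and 3 and in 2.73% to 17.3% in the other 3 libraries. These counts are called background counts in what follows.

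At the threshold used here, muscle had more RNA than epithelium for 6 of the 10 genes, and the reverse held for none. The threshold was a Benjamini-Hochberg adjusted p of 0.05 over 19375 tested genes, by the quasi-likelihood test of edgeR. Over all tested genes 10.7% passed, 6.58% toward muscle and 4.11% toward epithelium. The 6 were the ligands Tgfb2 and Tgfb3, the receptors Tgfbr2 and Tgfbr3, and the latent binding proteins Ltbp1 and Ltbp3. In 7 of the 10 genes, these 6 and Ltbp4, every muscle library was above every epithelial one, which held for 16.4% of all tested genes (26.9% counting both directions). The median log2 fold change of the 10 genes was 1.64, beside -0.10 for all tested genes. In sorted populations of this kind, fewer cells of a type and less RNA per cell cannot be told apart. The count was also 6 without muscle replicate 2. It fell to 4 without epithelium replicate 3, where Tgfb2 (adjusted p = 0.055) and Tgfbr2 (adjusted p = 0.0504) lost their call.

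**Figure D1:**
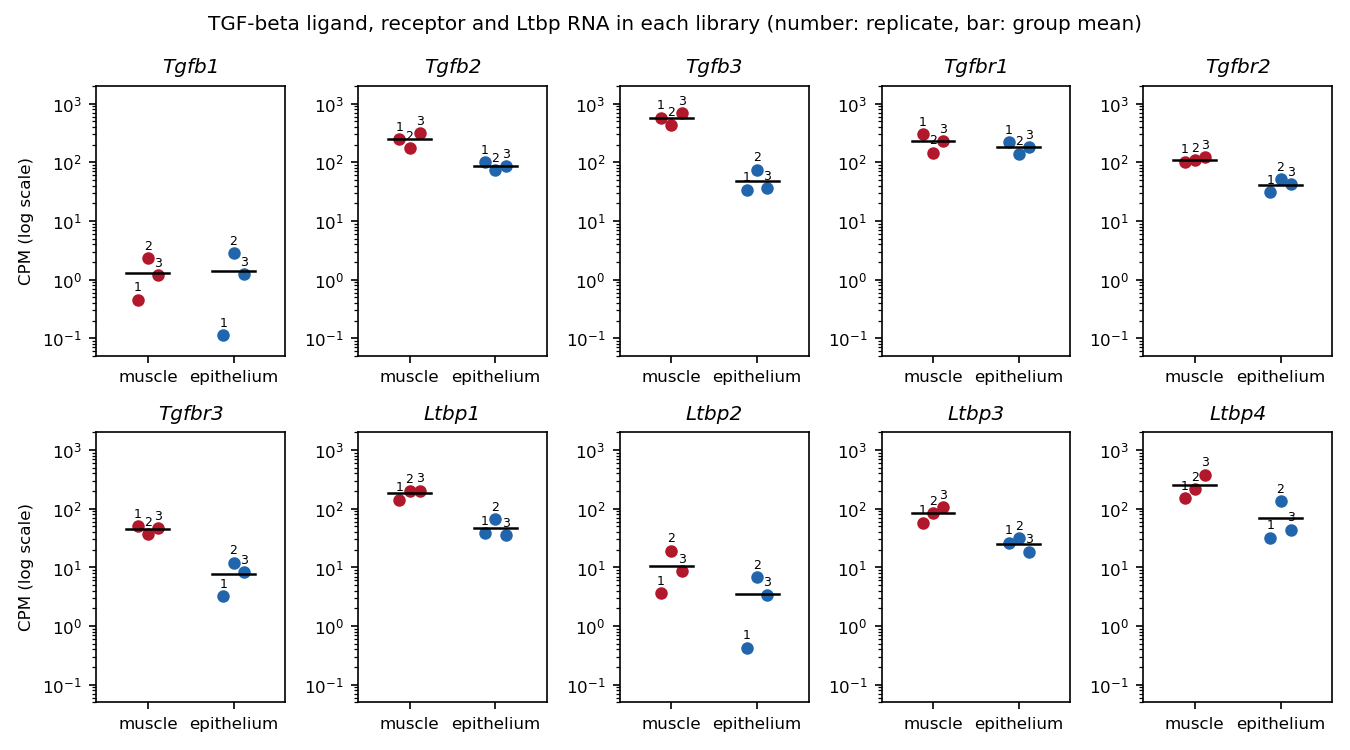
CPM of each gene (log scale, same axis in every panel) in the 3 muscle libraries (red) and 3 epithelial libraries (blue), with replicate numbers and a bar at the group mean. In Tgfb3 the muscle libraries lie between 437 and 692 CPM and the epithelial ones between 34.3 and 75.1; levels of different genes cannot be compared here because their lengths differ.

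The ligand Tgfb3 had the largest difference of the 10 genes. Muscle replicates 1 to 3 had 578, 437 and 692 CPM of Tgfb3, and epithelium replicates 1 to 3 had 34.3, 75.1 and 36.4 CPM. The lowest muscle library was well above the highest epithelial library, and epithelium replicate 2 was the highest of its group. The log2 fold change was 3.55 ± 0.39 (SE; edgeR adjusted p = 0.00085), which is 11.7-fold, and it passed the threshold in all 14 alternative fits.

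As a percent of the muscle mean, Tgfb3 in epithelium replicates 1 to 3 was at 6.02%, 13.2% and 6.40%. The median of the fibroblast markers measured in the same way was 6.25%, 26.2% and 5.70%, and that of smooth muscle markers 0.34%, 1.79% and 0.70%. The part of mesenchymal RNA in the Tgfb3 level of the epithelial libraries was not tested.

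Tgfb2, the ligand that depends most on the co-receptor Tgfbr3 for binding, was expressed in both populations. It had 249.5, 173 and 315 CPM in muscle replicates 1 to 3, beside 99.3, 73.0 and 85.5 CPM in the epithelial replicates. All muscle libraries lay above all epithelial ones, and replicate 2 was the lowest in both groups. The log2 fold change of 1.52 ± 0.28 (SE; edgeR adjusted p = 0.0095) equals 2.86-fold. As a percent of the muscle mean, Tgfb2 was at 40.4%, 29.7% and 34.8% in epithelium replicates 1 to 3. Of these, replicate 2 had the most fibroblast marker RNA. The part of mesenchymal RNA in the Tgfb2 level of the epithelial libraries was not tested.

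Tgfb1, the ligand most studied in immune cells, platelets and fibrosis, had 12, 46 and 47 counts in muscle replicates 1 to 3 and 6, 42 and 33 counts in epithelium replicates 1 to 3. These are 0.46, 2.30 and 1.19 CPM and 0.11, 2.81 and 1.24 CPM. The groups overlapped, and the highest library of each was the one numbered 2. Its log2 fold change was -0.07 ± 1.67 (SE; edgeR adjusted p = 0.99), an error too wide to show whether the populations differ, and its sign changed in 7 of the 14 alternative fits. Per kb of exon, Tgfb1 stood at 4.69 to 7.05 times the mean of the olfactory and vomeronasal receptor genes in the 3 libraries with many background counts and at 25.7 to 103 times that mean in the other 3. The part of background in its level was not tested.

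Levels of different genes were compared as CPM per kb of exon, with lengths from GENCODE M21. In muscle, Tgfb3 had 168 ± 37.7 (SD, n = 3), Tgfb2 47.3 ± 13.6 and Tgfb1 0.60 ± 0.43 CPM per kb. In epithelium the values were 14.4 ± 6.78, 16.5 ± 2.53 and 0.64 ± 0.62 CPM per kb. Tgfb3 was above Tgfb2 in every muscle library, whereas in epithelium the ranges of Tgfb2 and Tgfb3 overlapped. As a share of all ligand counts per kb, Tgfb3 made up 78.0%, 79.0% and 77.0% in muscle replicates 1 to 3, beside 34.6%, 59.1% and 38.8% in the epithelial replicates. Tgfb2 made up 20.4% to 22.8% in muscle and 37.4% to 65.2% in epithelium, and Tgfb1 at most 3.44% in any library. Epithelium replicate 2 was the epithelial library nearest to the muscle make-up.

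**Figure D2:**
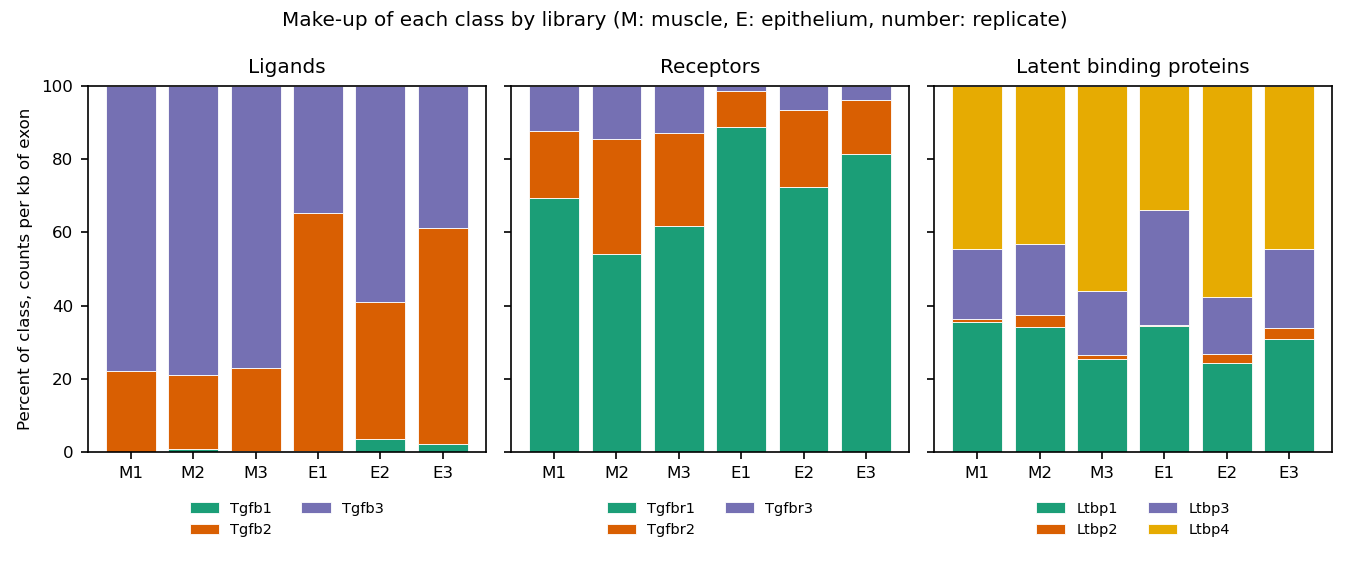
Share of each gene in its class, as percent of counts per kb of exon, in each library (M for muscle, E for epithelium, with the replicate number). Tgfb3 takes 77.0% to 79.0% of ligand RNA in the muscle bars and 34.6% to 59.1% in the epithelial bars, while Ltbp4 takes 43.2% to 55.9% of the latent binding protein bars in muscle and 34.0% to 57.8% in epithelium.

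The ratio of 2 genes within a library needs no scaling between libraries. Per kb, the ratio of Tgfb2 to Tgfb3 was 0.281, 0.258 and 0.296 in muscle replicates 1 to 3, beside 1.89, 0.633 and 1.53 in the epithelial replicates. The groups did not overlap. The mean log2 ratio was 2.14 lower in muscle (muscle minus epithelium -2.14), with SDs of 0.10 in muscle and 0.84 in epithelium (n = 3 each). An exact permutation test, two-sided, gave p = 0.10, the smallest value that 3 against 3 libraries allow, and 0.32 after Benjamini-Hochberg adjustment over 8 ratios. Without any one library the difference stayed between -2.61 and -1.82.

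Among the receptors, Tgfbr1, the type I receptor kinase, did not pass the threshold, and the others were higher in muscle. Tgfbr1 had 301, 146 and 232 CPM in muscle replicates 1 to 3, beside 223, 139 and 182 CPM in epithelium. The groups overlapped, and replicate 2 was lowest in each. Its log2 fold change was 0.32 ± 0.32 (SE; edgeR adjusted p = 0.76), and no alternative fit called it (adjusted p from 0.22 to 1.00).

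Tgfbr2, the type II receptor that binds the ligand first, had 102, 110 and 121 CPM in muscle replicates 1 to 3, beside 31.2, 51.8 and 42.1 CPM in epithelium. The muscle libraries were close together and all above the epithelial ones. Muscle exceeded epithelium by a log2 fold change of 1.42 ± 0.26 (SE; edgeR adjusted p = 0.0080), or 2.67-fold.

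Tgfbr3 encodes betaglycan, a co-receptor without kinase activity that presents ligand to the type II receptor. It had 50.8, 37.0 and 46.2 CPM in muscle replicates 1 to 3, beside 3.25, 12.03 and 8.23 CPM in epithelium, with no overlap. The log2 fold change of 2.52 ± 0.44 (SE; edgeR adjusted p = 0.0071) is 5.75-fold, and all 14 alternative fits called it. Among the epithelial libraries it was lowest in replicate 1, which had the fewest background counts, and highest in replicate 2, which had the most fibroblast marker RNA. The part of either in the epithelial level was not tested.

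Per kb of exon, Tgfbr1 had the highest receptor level in every library. Its mean was 35.3 ± 12.1 CPM per kb (SD, n = 3) in muscle and 28.3 ± 6.50 in epithelium. Tgfbr2 had 13.6 ± 1.17 and 5.09 ± 1.26 CPM per kb, and Tgfbr3 7.33 ± 1.15 and 1.29 ± 0.72. Tgfbr1 made up 54.0% to 69.3% of receptor counts per kb in muscle and 72.4% to 88.9% in epithelium. The ratio of Tgfbr2 to Tgfbr1 was 0.266, 0.587 and 0.411 in muscle replicates 1 to 3, beside 0.110, 0.291 and 0.181 in epithelium, and the groups overlapped (exact permutation p = 0.20, two-sided). The ratio of Tgfbr3 to Tgfbr2 was 0.454 to 0.667 in muscle and 0.141 to 0.313 in epithelium, with no overlap and a mean log2 difference of 1.25 (exact permutation p = 0.10, the smallest possible, 0.32 after Benjamini-Hochberg adjustment).

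**Figure D3:**
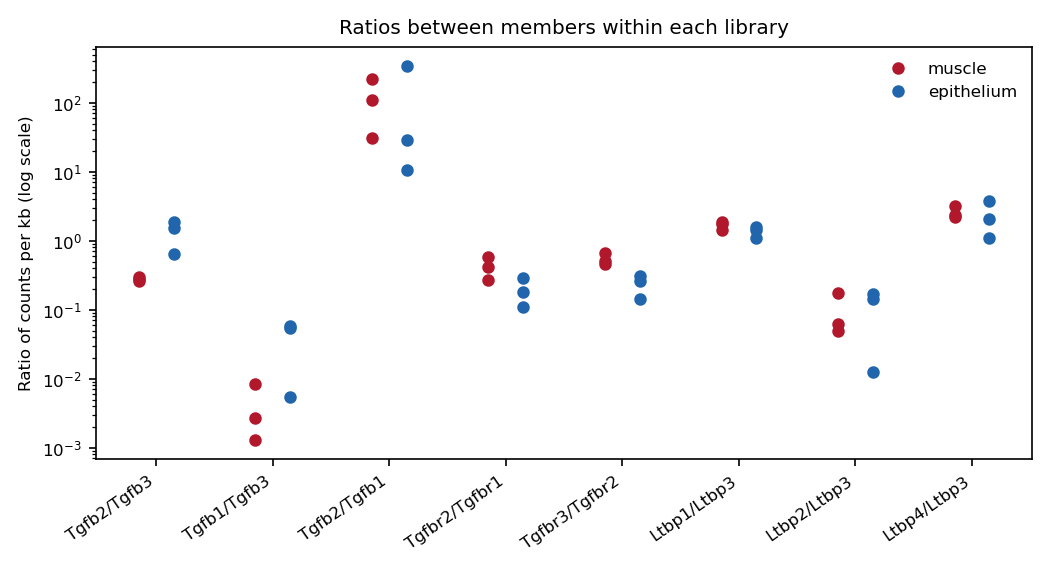
Ratios of counts per kb of exon between pairs of genes within each library (log scale), muscle in red and epithelium in blue, 3 libraries each. Tgfb2/Tgfb3 and Tgfbr3/Tgfbr2 are the pairs in which the groups do not overlap.

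Ltbp1, which binds latent ligand and anchors it to fibronectin and fibrillin, had the smallest adjusted p of the latent binding proteins. Muscle replicates 1 to 3 had 144, 200.05 and 205 CPM of Ltbp1 and the epithelial replicates 38.3, 65.8 and 35.7 CPM. The groups did not overlap, and epithelium replicate 2 was again the highest of its group. The log2 fold change was 1.98 ± 0.31 (SE; edgeR adjusted p = 0.0042), or 3.93-fold, and all 14 alternative fits called it.

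Ltbp3, which also binds latent ligand and is needed in the skeleton, had 58.3, 85.3 and 106 CPM in muscle replicates 1 to 3, beside 26.3, 31.5 and 18.6 CPM in epithelium. All muscle libraries were above all epithelial ones. Expressed as a log2 fold change, the difference was 1.71 ± 0.31 (SE; edgeR adjusted p = 0.0078), or 3.27-fold. Its adjusted p stayed under the threshold in the 14 alternative fits but reached 0.0498 in 1 of them.

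Ltbp4, which binds latent TGF-beta weakly and takes part in elastic fibre assembly, had 153, 215 and 382 CPM in muscle replicates 1 to 3, beside 32.3, 133 and 43.8 CPM in epithelium. No library of 1 group reached into the other, and epithelium replicate 2 came close to the lowest muscle library. Ltbp4 had a log2 fold change of 1.84 ± 0.56 (SE) and missed the threshold (adjusted p = 0.072, edgeR). Without epithelium replicate 2 it was 2.68 with an adjusted p of 0.0040, and the Wald test of DESeq2 (adjusted p = 0.015) and limma-voom (adjusted p = 0.012) also called it, as did 5 of the 14 alternative fits in all. Ltbp4 in epithelium replicate 2 was at 53.3% of the muscle mean, beside 12.9% and 17.5% in replicates 1 and 3. The part of the mesenchymal RNA of that library in this value was not tested.

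Ltbp2, a family member that does not bind latent TGF-beta, was the lowest of the 4 in every library. Muscle replicates 1 to 3 had 97, 385 and 343 counts of Ltbp2 (3.69, 19.2 and 8.67 CPM) and the epithelial replicates 23, 103 and 91 counts (0.43, 6.88 and 3.42 CPM). The groups overlapped, and the library numbered 2 was the highest in each. In the fit Ltbp2 had a log2 fold change of 1.57 ± 0.96 (SE; edgeR adjusted p = 0.45), positive in all 14 alternative fits and called in none. It was 0.81 without muscle replicate 2 and 2.53 without epithelium replicate 2. In each group that library also had the highest sum of background counts, and their part in the level was not tested. D030025P21Rik, an antisense gene with 0 to 66 counts per library, overlaps 764 bp of Ltbp2 exon. The library kit does not mark strand in standard use, so reads of that stretch cannot be assigned to either gene.

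Per kb of exon, Ltbp4 (42.7 ± 20.2 CPM per kb, SD, n = 3), Ltbp1 (26.5 ± 4.89), Ltbp3 (16.04 ± 4.62) and Ltbp2 (1.56 ± 1.17) followed in this order in muscle. In epithelium the order of the means was the same, with 11.9 ± 9.43, 6.75 ± 2.41, 4.91 ± 1.26 and 0.53 ± 0.48 CPM per kb. The ranges of Ltbp4 and Ltbp1 overlapped in both populations, those of Ltbp1 and Ltbp3 overlapped in epithelium and not in muscle, and Ltbp2 lay below the other 3 without overlap in both. The ratios of Ltbp1, Ltbp2 and Ltbp4 to Ltbp3 overlapped between the populations, with log2 differences of 0.31, 0.27 and 0.32 (exact permutation p = 0.20, 0.80 and 0.70, two-sided).

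Set in 1 order per kb, the 10 genes ran in muscle from Tgfb3 through Tgfb2, Ltbp4, Tgfbr1, Ltbp1, Ltbp3, Tgfbr2, Tgfbr3 and Ltbp2 to Tgfb1. Neighbours separated by their ranges were Tgfb3 and Tgfb2, Ltbp1 and Ltbp3, Tgfbr2 and Tgfbr3, and Tgfbr3 and Ltbp2, and the ranges of the other neighbours overlapped. In epithelium the order ran from Tgfbr1 through Tgfb2, Tgfb3, Ltbp4, Ltbp1, Tgfbr2, Ltbp3, Tgfbr3 and Tgfb1 to Ltbp2. There, only the neighbours Tgfbr1 and Tgfb2, and Ltbp3 and Tgfbr3, had ranges that did not overlap. By group means, the highest level in the set was a ligand in muscle and the type I receptor in epithelium. In epithelium replicate 2, however, Ltbp4 (22.7 CPM per kb) and Tgfb3 (22.2) were above Tgfbr1 (21.7), so the ranges of these 3 genes overlapped in epithelium.

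**Figure D4:**
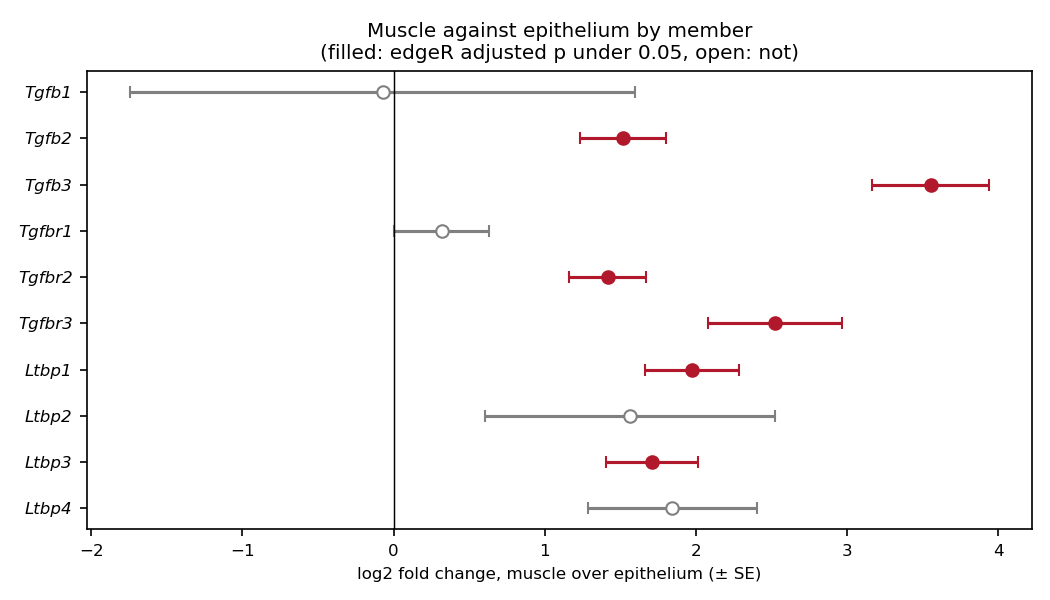
Log2 fold change of muscle over epithelium with its standard error for each gene; filled points passed an adjusted p of 0.05 in edgeR and open points did not. The filled points run from 1.42 (Tgfbr2) to 3.55 (Tgfb3), and the widest bar is that of Tgfb1 at ± 1.67.

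The genes around this core were described with 6 lists, of 70 distinct genes that were all tested. These lists, too, were chosen with earlier results of these data known. Of them, 27 passed the threshold toward muscle and 3 toward epithelium. This is 42.9%, beside 10.7% of all tested genes. The median log2 fold change of the 70 genes was 1.08. Of 15 genes for activation of latent ligand, 5 passed toward muscle and none toward epithelium, with a median of 1.27. The 5 became 3 without muscle replicate 3 or without epithelium replicate 3, and 1 gene passed toward epithelium with limma-voom or without muscle replicate 2. Lrrc32 encodes a membrane protein that holds latent TGF-beta on the cell surface, and it had 28.6 ± 4.24 CPM (SD, n = 3) in muscle against 2.78 ± 1.48 in epithelium (log2 fold change 3.38, adjusted p = 0.0017, edgeR). The metalloprotease gene Mmp2 (3.52, adjusted p = 0.0026) and the integrin gene Itgb3 (2.81, adjusted p = 0.041) were higher in muscle as well, the latter in 6 of 14 alternative fits. The call of Itgb3 was lost without muscle replicate 1 or 3 or epithelium replicate 3 (adjusted p up to 0.18) and with the replicate number as a block (adjusted p = 0.13). Bmp1 and Itgb1 were the other genes called, named after their values were seen. Itgb6 and Itgb8, named after their values were seen, encode integrin subunits that release TGF-beta from its propeptide. Itgb6 had 3.37 ± 3.73 CPM in muscle against 14.8 ± 4.95 in epithelium (log2 fold change -2.13, adjusted p = 0.25), and Itgb8 10.5 ± 1.09 and 3.14 ± 2.09 CPM (1.75, adjusted p = 0.12). The groups did not overlap for either, and neither passed the threshold.

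Of 11 matrix partners of the latent complex, 9 passed toward muscle and 1 toward epithelium, with a median log2 fold change of 2.62. Eln, which encodes elastin, had 2155 ± 1787 CPM (SD, n = 3) in muscle against 50.3 ± 56.9 in epithelium (log2 fold change 5.43, adjusted p = 0.013, edgeR). Bgn (4.17, adjusted p = 0.020), a small proteoglycan gene, and Emilin1 (3.87, adjusted p = 0.0034), whose product restrains processing of the TGF-beta precursor, followed. Eln lost its call without muscle replicate 3, epithelium replicate 1 or epithelium replicate 3, at an adjusted p of up to 0.088. Bgn lost it without epithelium replicate 3 or any 1 of the muscle libraries (up to 0.10) and with library size only (0.058). Fmod, which encodes fibromodulin, a TGF-beta binding proteoglycan, went the other way, with 49.0 ± 5.20 CPM in muscle against 211 ± 81.9 in epithelium (-2.11, adjusted p = 0.0045). The fibroblast markers Dcn, Col1a1 and Col3a1 also stand in these lists. In the fibroblast list as a whole, 5 of 8 genes passed toward muscle.

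Of 8 receptor partners, 3 passed toward muscle and none toward epithelium, with a median of 1.47. The 3 became 5 without epithelium replicate 2. Acvrl1 encodes a type I receptor best known from endothelium, and its log2 fold change was 2.43 ± 0.38 (SE; edgeR adjusted p = 0.0038). Pmepa1, a TGF-beta target that dampens the signal, had 58.7 ± 16.1 CPM (SD, n = 3) in muscle against 13.7 ± 1.72 in epithelium (2.10, adjusted p = 0.0020). Bambi, a decoy receptor, differed by 1.57 (adjusted p = 0.0055). All 3 kept their call in the 14 alternative fits.

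Of 12 Smads and Smad cofactors, 1 passed the threshold toward epithelium and none toward muscle in edgeR, with a median log2 fold change of 0.04. Smad3 and 3 others had an unadjusted p under 0.05. Toward epithelium, 2 passed without epithelium replicate 2 and none without muscle replicate 1 or epithelium replicate 1, and 1 passed toward muscle without muscle replicate 2. Smad3, which carries the signal of the receptor to the nucleus, had 45.6 ± 20.03 CPM (SD, n = 3) in muscle against 148 ± 59.5 in epithelium, a log2 fold change of -1.70 ± 0.40 (SE; edgeR adjusted p = 0.026). Its call was lost without muscle replicate 1 (adjusted p = 0.087) or epithelium replicate 1 (0.060). Smad2, its partner and named after its value was seen, had 88.8 ± 18.9 and 96.7 ± 13.8 CPM (-0.12, adjusted p = 0.92).

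Of 17 genes known to respond to TGF-beta in many cell types, 10 passed toward muscle and 1 toward epithelium, with a median of 2.47. The 10 became 6 without muscle replicate 3 and with library size only. The largest changes toward muscle were in Acta2 (9.47, adjusted p = 0.00085, edgeR) and Tagln (6.15, adjusted p = 0.00049), which are also smooth muscle markers, and in the transcription factor gene Snai2 (3.79, adjusted p = 0.0011). Cdkn2b, a cell cycle inhibitor gene and classical target in epithelial cells, had 2.35 ± 1.02 CPM (SD, n = 3) in muscle against 20.2 ± 2.25 in epithelium (-3.10, adjusted p = 0.0028). The feedback inhibitor genes Smad7 (0.06, adjusted p = 0.97) and Skil (-0.07, adjusted p = 0.96), named after their values were seen, did not pass. Of 11 genes of the activin branch, which shares Smad2 and Smad3, 2 passed toward muscle and none toward epithelium, with a median of -0.33. The 2 became 1 without muscle replicate 3 or epithelium replicate 3, and 1 gene passed toward epithelium without epithelium replicate 2. Inhba, which encodes the subunit of activin A, had 91.0 ± 20.8 CPM in muscle against 6.76 ± 6.78 in epithelium (3.79, adjusted p = 0.0073, edgeR). Fstl3, an activin binding protein gene, differed by 2.15 on the log2 scale (adjusted p = 0.023) and lost its call without muscle replicate 3 or epithelium replicate 3 (adjusted p up to 0.11).

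Without epithelium replicate 2, several of these differences were larger by a factor of over 1.5 on the linear scale. The log2 fold change became 4.95 for Inhba, 6.01 for Bgn, 6.96 for Eln, 4.72 for Emilin1, 4.23 for Mmp2, 3.70 for Itgb3 and 10.63 for Acta2. Eln was also 4.66 without muscle replicate 2. Pmepa1 went the other way, from 2.10 to 1.96 without epithelium replicate 2. Epithelium replicate 2 had the most fibroblast marker RNA of its group, the lowest total count and the highest sum of background counts. The part of each in these shifts was not tested.

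**Figure D5:**
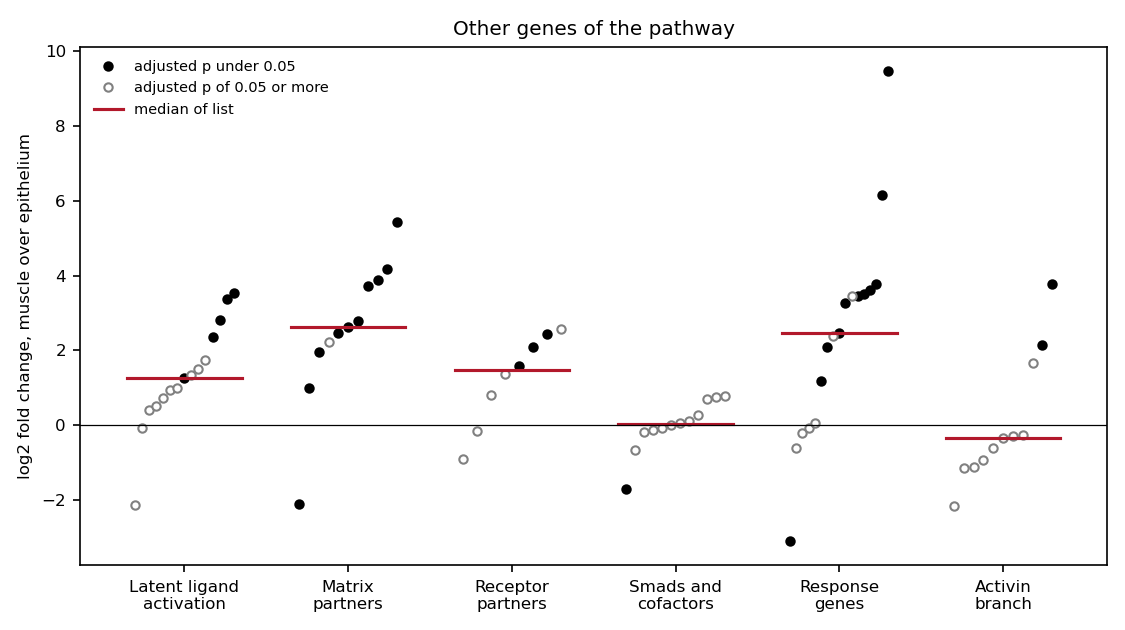
Log2 fold change of muscle over epithelium for each gene of 6 pathway lists; black points passed an adjusted p of 0.05 in edgeR, open points did not, and the red line is the median of the list. The median is 2.62 for the matrix partners and 0.04 for the Smads and cofactors.

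The genes outside these lists whose level across the 6 libraries most resembled that of each ligand were found by the Euclidean distance of log2 CPM centred on the gene mean, over 9283 genes that averaged 4 or more in log2 CPM. For Tgfb3 they were Osr1 (distance 0.42), Iigp1 (0.48) and Mfap4 (0.53). Osr1, a transcription factor gene of foregut mesenchyme, had 544, 415 and 577 CPM in muscle replicates 1 to 3, beside 31.4, 92.2 and 32.9 CPM in epithelium, with epithelium replicate 2 highest as for Tgfb3. For Tgfb2 they were Ilk (0.19), Rab3a (0.21) and 4931406C07Rik (0.28), and for Tgfb1 Fry (0.71), Slc30a4 (0.90) and Nrxn3 (1.17). The 3 genes nearest to Tgfb1 had, like it, their highest level within each group in the library numbered 2 and their lowest of all in epithelium replicate 1. Choice by distance to the ligand favours a shared order of libraries, so these shared orders are no further result.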

How the data were processed

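RNA of 3 muscle and 3 epithelial sorted libraries was sequenced after SMART-Seq amplification and Nextera XT library preparation, per the labels' protocols. The authors deposited raw counts, 1 row per gene symbol. Trim Galore, Bowtie2, Cufflinks, DESeq and the mm10 build are named, without version or role, per the submitters' processing notes. The annotation and counting program are not given in the sources used here. The kit adds no molecular identifiers, so PCR copies are counted.

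From these counts, genes were filtered with filterByExpr, scaled by TMM and tested with edgeR 4.0.16 in R 4.3.3 (robust quasi-likelihood, two-sided, 2 groups of 3, no covariate), with Benjamini-Hochberg adjustment over 19375 genes and a threshold of 0.05. SE came from the test statistic. Total counts were 11847432 to 54848820 per library. The pipeline was tested on simulated data. Ratios used a pseudocount of 0.5 count and exact permutation tests (scipy 1.17.1). Exon lengths and overlaps came from GENCODE M21 (GRCm38). Alternatives were DESeq2 1.42.0, limma-voom (limma 3.58.1), other scaling, no filter, a replicate block and leaving out libraries. Leaving out both libraries numbered 2, whose header identifiers differ from the others, and that identifier as a term were added after seeing the data, as was coding length in place of exon length.

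The members and gene lists were chosen with earlier results of these data known. The genes named were all 10 members, Actg2 and Epcam, up to 3 genes per direction and pathway list with the largest change among those past the threshold, without overlap and averaging 2 or more in log2 CPM, and the 3 genes nearest to each ligand. Ctgf was matched to Ccn2 by a RefSeq synonym.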

Additional observations from a re-analysis of the deposited data

How the results depend on the processing

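The count of all genes that differed was 3531 with the DESeq2 Wald test (1949 higher in muscle, 1582 in epithelium) and 3178 with the header identifier as a term (2054 higher in muscle). With library size only, 1439 genes were called higher in epithelium. In that fit the median log2 fold change of all genes moved from -0.10 to -0.33. The share of calls toward muscle moved from 61.5% to 42.0%, and all 9 members other than Tgfb1 stayed positive. Over the 6 fits without a library the count ranged from 1169 to 2573, with 570 to 1655 higher in muscle and 514 to 918 in epithelium, and the lowest total came without epithelium replicate 3. The members called higher in muscle numbered 4 to 7 over those fits and 6 or 7 in all other alternatives, with none called higher in epithelium. Over the fits without a library, 17 to 32 genes of other pathway lists were called higher in muscle and 2 to 5 in epithelium. The 17 came without muscle replicate 3, and 5 were called higher in epithelium without both libraries numbered 2. Without both libraries numbered 2 and with the DESeq2 Wald test or limma-voom, 5 receptor partners were called higher in muscle.

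Tgfb1 went from -0.73 to 1.03 over the fits without a library, and turned positive with limma-voom (1.35), the replicate block (0.49), without both libraries numbered 2 (0.22), with the header identifier as a term (0.10), and without muscle replicate 1 (0.35), muscle replicate 3 (0.01) or epithelium replicate 2 (1.03). Among the ratios without a library, Tgfb2/Tgfb1 went from -0.12 (without epithelium replicate 2) to 2.38, Ltbp2/Ltbp3 from -0.93 to 0.93 and Ltbp4/Ltbp3 from -0.13 to 0.76. The cause was not tested. With coding length in place of exon length, Tgfb3 made up 70.1% to 72.7% of ligand RNA in muscle and 27.0% to 51.4% in epithelium.

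With a replicate block, the paired fit called 2418 genes and the same number of members, 6. Deviations from the group mean correlated at 0.59, 0.73 and -0.57 in the pairs numbered 1, 2 and 3 over 19375 genes. Muscle replicate 3 and epithelium replicate 1, which differ in number, reached 0.69. Over 4123 genes of higher level, the pairs numbered 1, 2 and 3 gave 0.17, 0.15 and -0.17. Whether libraries of the same number share animals cannot be told from these values. Counting error is large for Tgfb1, with 6 to 47 counts per library, and these counts did not follow depth: the deepest library, epithelium replicate 1, had 6 and the shallowest, epithelium replicate 2, had 42.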
